A study of Mus musculus with 4 samples.

Results

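The genes described here are 10 imprinted genes that control growth in the mouse: Peg3, Mest, Plagl1, Peg10, Ndn and Igf2, which are active from the paternal copy, and Grb10, Cdkn1c, Phlda2 and H19, which are active from the maternal copy. They were measured in primary keratinocytes, the epithelial cells of the epidermis, that either carried the normal glucose transporter Glut1 (gene Slc2a1) or lacked it through a keratinocyte-specific deletion. Each genotype, WT and Glut1-deficient, was measured on 2 whole-transcript arrays, and 30142 genes had a row of their own on the 4 arrays, meaning a row annotated with exactly 1 gene symbol. Of the 10 members, 9 had such a row, and where a gene had several the brightest by its mean over the arrays was used. H19 has only a row shared with the microRNA gene Mir675, so no value is given for it. The group was selected on this same comparison, with Peg3, Mest and Grb10 named because they were higher in Glut1-deficient cells, so the differences of the members are given as a description and carry no test.

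All animals were C57BL/6J mice, 1 week old, with 4 mice per genotype, each seeded in a dish of its own. Cells grew in a low-calcium keratinocyte medium with 0.05 mM CaCl2, insulin at 0.5 µg/ml, EGF at 5 ng/ml, hydrocortisone, bovine pituitary extract, penicillin and streptomycin, were replated on day 3 with 2000000 cells, and gave RNA a day later. RNA from 2 randomly chosen plates was combined for each array, so an array is a pool and not 1 animal, and the labels do not say which mice it holds. The sources used here do not name the driver of the keratinocyte-specific deletion. All values are on a log2 scale, on which 1 unit is a doubling of the signal, and every difference is Glut1-deficient minus WT.

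Imprinted genes are transcribed mainly from the copy inherited from one parent, because DNA methylation set in the egg or the sperm marks the control region of each cluster. As a broad rule, paternally expressed members such as Igf2 and Peg3 promote growth of the embryo and placenta, and maternally expressed members such as Grb10, Cdkn1c and Phlda2 restrain it. Many of them are highly active in fetal tissues and are silenced as organs reach their final size. The arrays measure the RNA of both parental copies together and carry no allele information, so they cannot show whether imprinting was kept or lost.

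The promoters of Peg3, Mest, Grb10 and Ndn are shown because these members had the largest differences in each direction and because their start regions differ in CpG number and motif matches. Each sequence is the 250 bases before a RefSeq start site in mouse build GRCm38.p6, read 5′ to 3′ on the strand of the gene. Capitals mark matches to 3 motifs: the hexamer TGCCGC bound by the imprint-protecting factor ZFP57 when methylated (its reverse complement included), the palindrome GGGGCCCC bound by PLAGL1, and the cAMP response element TGACGTCA. The second of these is a motif of the protein encoded by the member Plagl1, and the cAMP response element was added after the sequences had been read.
Peg3, chr7:6730420-6730669, minus strand: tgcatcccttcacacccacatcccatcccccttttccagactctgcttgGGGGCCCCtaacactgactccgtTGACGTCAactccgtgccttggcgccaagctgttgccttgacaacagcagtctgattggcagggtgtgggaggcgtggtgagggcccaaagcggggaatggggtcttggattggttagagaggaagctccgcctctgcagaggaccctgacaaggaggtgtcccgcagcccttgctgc
Mest, chr6:30737800-30738049, plus strand: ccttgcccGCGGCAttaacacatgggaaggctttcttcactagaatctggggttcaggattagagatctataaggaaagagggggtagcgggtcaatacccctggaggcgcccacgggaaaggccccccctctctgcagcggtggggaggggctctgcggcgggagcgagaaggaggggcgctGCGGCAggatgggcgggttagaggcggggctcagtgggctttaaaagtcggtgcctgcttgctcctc
Grb10, chr11:12037421-12037670, minus strand: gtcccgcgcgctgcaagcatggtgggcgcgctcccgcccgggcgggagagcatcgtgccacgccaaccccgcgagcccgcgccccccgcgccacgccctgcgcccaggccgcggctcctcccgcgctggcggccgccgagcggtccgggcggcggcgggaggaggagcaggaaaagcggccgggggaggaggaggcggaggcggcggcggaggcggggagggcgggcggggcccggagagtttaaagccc
Ndn, chr7:62348027-62348276, plus strand: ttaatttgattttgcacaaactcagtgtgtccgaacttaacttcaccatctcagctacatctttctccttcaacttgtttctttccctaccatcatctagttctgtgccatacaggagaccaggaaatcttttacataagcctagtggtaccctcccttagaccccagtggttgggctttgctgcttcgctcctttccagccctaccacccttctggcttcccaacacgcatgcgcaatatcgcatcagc

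The Peg3 sequence holds 1 PLAGL1 palindrome, which 0.889% of 32851 RefSeq promoters of the same length hold, and 1 cAMP response element, which 1.55% hold. The Mest sequence holds 2 ZFP57 hexamers, a motif found at least once in 8.68% of promoters. Among members whose windows are not printed, the Plagl1 window holds 1 ZFP57 hexamer. Searched on both strands, no match to these motifs, to the YY1 core GCCATNTT (3.91% of promoters) or to the C/EBP-ATF element TGATGNAA (3.45%, also added later) lies in the Grb10 and Ndn windows. No matches of different motifs overlapped. The 4 windows also differ in CpG dinucleotides, the substrate of DNA methylation: 40 in Grb10, 14 in Mest, 8 in Peg3 and 5 in Ndn, against a median of 6 over all promoters. The Grb10 window printed has more CpG than 98.7% of promoters. Other RefSeq starts of these genes differ: a second Grb10 window holds 8 CpG, and another Mest window holds 7 CpG and 0 ZFP57 hexamers. Of the 10 members, 7 have promoter entries, 13 windows in all, and 10 of the 13 lie above the median CpG number. These windows are not independent: the Mest windows starting at 30737800 and 30737803 overlap almost fully, and Igf2 has several. A match is a description of letters in these windows and was not tested for binding.

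The labels were checked first. Slc2a1, which encodes Glut1, read 13.26 and 13.40 in WT and 12.09 and 12.01 in Glut1-deficient cells, a difference of -1.28 (SE 0.10, adjusted p = 0.00754, limma with Benjamini-Hochberg adjustment over all rows tested). Without Glut1-deficient replicate 1 it no longer passed (adjusted p = 0.0508). Transcript remained well above background in the Glut1-deficient arrays, and which part of the gene was deleted is not given. The basal keratinocyte keratins Krt5 and Krt14 were among the brightest markers on every array, Krt5 at 18.61 and 18.69 in WT and 18.30 and 17.98 in Glut1-deficient cells, and Krt14 at 17.40, 17.60, 17.16 and 16.97. The labelled cell type thus had its defining markers on all 4 arrays. Across rows, Pearson correlation was 0.998 for the WT pair of arrays, 0.997 for the Glut1-deficient pair, and from 0.989 to 0.992 for arrays of unlike genotype. The background floor of an array, the 95th percentile of its 23 background control rows, was 4.36 and 4.70 in WT and 4.87 and 4.63 in Glut1-deficient cells.

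Peg3 had the largest difference among the members. Peg3 encodes a zinc finger protein that regulates transcription and takes part in p53 and TNF responses and in placental and maternal functions. It read 6.42 and 6.43 in WT and 11.40 and 10.85 in Glut1-deficient cells. Both Glut1-deficient arrays lay far above both WT arrays, with a difference of 4.69 (SE 0.19), or 25.9-fold. Peg3 ranked 7 of 30142 genes by its positive difference. Leaving out each array in turn gave 4.42 to 4.97.

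Mest, also called Peg1, encodes an enzyme of the alpha/beta hydrolase fold and is a paternally expressed gene known for its activity in growing mesoderm and fat tissue. Its values were 5.88 and 5.97 in WT and 8.15 and 8.04 in Glut1-deficient cells. The groups were separate and the replicates close, and the difference was 2.17 (SE 0.10), or 4.51-fold, at rank 80 of all genes. The 2 ZFP57 hexamers of the Mest window printed above stand beside this value only as a description.

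Plagl1, also called Zac1, encodes a zinc finger transcription factor that can halt the cell cycle and that regulates other imprinted genes. It was dim, at 4.69 and 4.88 in WT and 5.32 and 5.36 in Glut1-deficient cells. All 4 values were above the floor of their array, the groups did not overlap, and the difference was 0.55 (SE 0.11), or 1.47-fold. Peg10, a gene derived from a retrotransposon and needed in the placenta, read 4.09 and 4.33 in WT and 5.11 and 5.14 in Glut1-deficient cells. Both WT values lay below the floor, so the ratio is a bound, at least 1.51-fold higher in Glut1-deficient cells. Igf2, the fetal growth factor that signals through the IGF1 and insulin receptors, was at the edge of detection. Its values were 4.36 and 4.37 in WT, not above the floor on either array, and 4.82 and 4.72 in Glut1-deficient cells, above the floor on 1 of 2 arrays, so no ratio is given.

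Ndn went the other way. Ndn encodes necdin, a MAGE family protein that binds E2F1 and p53 and restrains proliferation in neurons and other cells. It read 8.91 and 9.08 in WT and 8.12 and 8.49 in Glut1-deficient cells. Both Glut1-deficient values were below both WT values, but the Glut1-deficient replicates lay 0.37 apart, and the difference was -0.69 (SE 0.16), or 1.61-fold lower. Leaving out each array in turn gave -0.87 to -0.50.

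Among the maternally expressed members, Grb10 had the largest difference. Grb10 is an adaptor that binds the insulin and IGF1 receptors and dampens their signal, and it is a substrate of mTORC1. It read 9.28 and 9.15 in WT and 11.57 and 11.40 in Glut1-deficient cells. The Glut1-deficient arrays were both well above the WT arrays, with a difference of 2.27 (SE 0.11), or 4.81-fold, at rank 76 of all genes.

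Phlda2, a small pleckstrin homology domain protein that limits placental growth, read 8.70 and 8.71 in WT and 9.77 and 9.62 in Glut1-deficient cells. The groups were separate and the difference was 0.99 (SE 0.10), or 1.99-fold. Cdkn1c encodes p57Kip2, an inhibitor of cyclin-dependent kinases that stops the cell cycle in differentiating cells. It read 5.63 and 5.60 in WT and 6.29 and 6.41 in Glut1-deficient cells, again without overlap, with a difference of 0.73 (SE 0.10), or 1.66-fold. Cdkn1c and Phlda2 lie in the same imprinted cluster on chromosome 7, next to each other apart from Slc22a18.

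**Figure D1:**
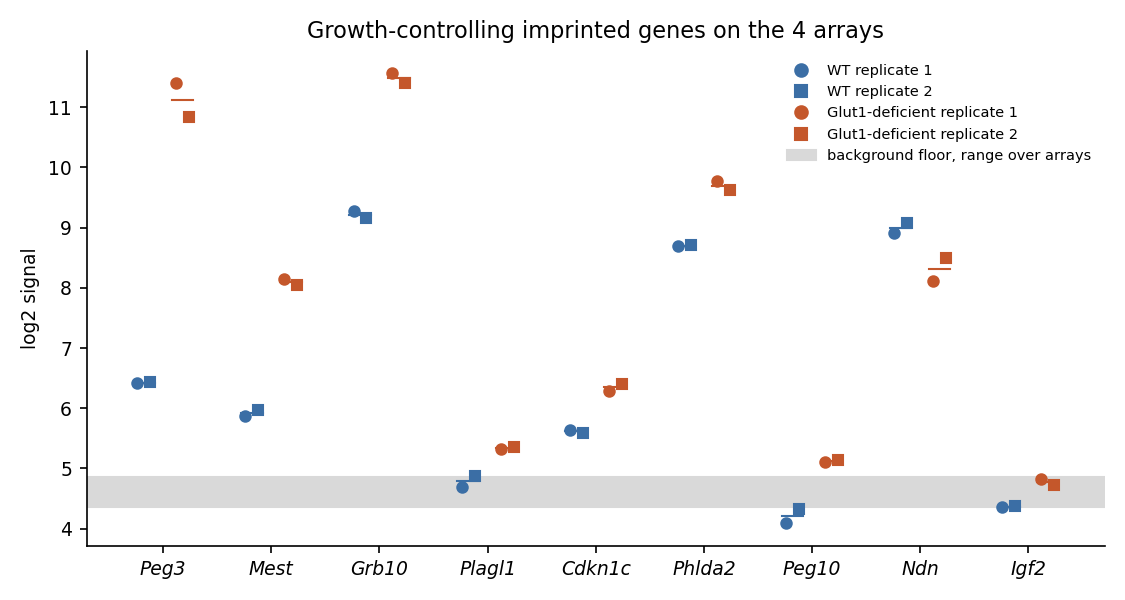
Signal of the 9 measured members on each array, on a log2 axis, with WT arrays in blue, Glut1-deficient arrays in orange, short bars at the means and a grey band for the range of the background floor. Peg3 moves from 6.42 and 6.43 in WT to 11.40 and 10.85 in Glut1-deficient cells, Mest and Grb10 differ by 2.17 and 2.27, and Ndn is the member with lower Glut1-deficient values. Heights of different genes come from different probes and are not compared.

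Of the 9 members measured, 8 were higher and 1 was lower in Glut1-deficient cells. The paternally expressed members that were above the floor in WT had positive differences from 0.55 (Plagl1) to 4.69 (Peg3) and the negative one of Ndn, and the maternally expressed members had differences from 0.73 to 2.27, so both parental classes included genes with higher values. A total of 7 members had an adjusted p under 0.05 (limma with Benjamini-Hochberg adjustment) in the higher direction, beside 4.11% of all rows tested, and 0 in the lower direction, beside 3.11%, with 7.22% called in either direction. Values of the groups did not overlap for 9 of 9 members, beside 49.7% of all rows. Since the members were chosen on this contrast, nothing is read from these counts. The 2 members not called were Ndn and Igf2. Plagl1, Cdkn1c, Phlda2 and Peg10 each lost the call in at least 1 of the fits with an array left out. Peg3, Mest and Grb10 kept it, but they were named for being higher, so this adds no support.

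The 7 members above the floor on all 4 arrays were Peg3, Mest, Grb10, Phlda2, Cdkn1c, Plagl1 and Ndn. The median difference of the 9 members was 0.92, beside -0.01 over all genes. At least 2-fold differences were seen for 3 members, Peg3, Mest and Grb10, and for 3.01% of all genes. Glut1-deficient replicate 1 was higher than replicate 2 for Peg3, Mest, Grb10, Phlda2 and Igf2, and lower for Plagl1, Cdkn1c, Peg10 and Ndn, so the spread between the Glut1-deficient arrays had no single direction over the members. Each array is a pool of plates, and the p-values measure only the spread between these pools, which may be technical, and not that between single animals. In a culture measured in bulk, fewer cells of a type and less RNA per cell cannot be told apart.

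The members sit in few chromosomal clusters. Chromosome 7 holds 6 of the 10 (Peg3, Ndn, H19, Igf2, Cdkn1c and Phlda2), chromosome 6 holds Peg10 and Mest, chromosome 10 holds Plagl1 and chromosome 11 holds Grb10. The 5 nearest protein-coding genes with a row of their own on each side of each measured member were taken in RefSeq order, a rule chosen after the data had been seen. Of the 79 neighbours that are no members, 5 rose and 2 fell (limma, adjusted p under 0.05), which is 8.86%, beside 7.22% of all rows. Of the 79, 36 were below the floor on all 4 arrays, and all 7 genes past the threshold were among the 36 above it on both arrays of at least 1 genotype.

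At Peg3, 8 of the 10 neighbours were below the floor on all arrays, so little can be read there. Only the zinc finger genes Zfp954 and Zfp418 were above it, and neither passed (limma). At Peg10 5 of 10 neighbours were above the floor on both arrays of a genotype and at Igf2 3 of 10, and 0 passed at either member. Over all rows, 6720 had an unadjusted p under 0.05. At Mest, 1 of 10 neighbours passed: Cpa4, a carboxypeptidase gene that is imprinted in humans, read 11.89 and 12.89 in WT and 15.07 and 14.91 in Glut1-deficient cells. The Cpa4 groups did not overlap, and the difference was 2.61 (SE 0.33, adjusted p = 0.0183), lost without Glut1-deficient replicate 1 (0.102) or replicate 2 (0.0678). Copg2, the gene that overlaps the end of Mest on the other strand, had a difference of 0.39 (adjusted p = 0.0764).

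At Grb10 the only neighbour past the threshold was Fignl1, a DNA repair gene, which fell by 1.13 (SE 0.20, adjusted p = 0.0395), against the direction of Grb10. This call was lost without WT replicate 1 (0.106), WT replicate 2 (0.134) or Glut1-deficient replicate 1 (0.0869). Cobl, a maternally biased neighbour of Grb10, differed by 0.86 without passing (adjusted p = 0.119). At Plagl1 the lysosomal fucosidase gene Fuca2 rose by 0.91 (SE 0.12, adjusted p = 0.0185), a call lost with any 1 array left out (0.0503 to 0.0915). At Ndn, the phospholipid transporter gene Atp10a read 7.99 and 8.31 in WT and 7.10 and 7.13 in Glut1-deficient cells. Atp10a fell by 1.03 (SE 0.13, adjusted p = 0.0194), lost without WT replicate 2 (0.0655), Glut1-deficient replicate 1 (0.0971) or Glut1-deficient replicate 2 (0.0676). Ube3a, which lies between Ndn and Atp10a in this order, differed by -0.49 without passing (limma, adjusted p = 0.279). Magel2, the paternally expressed neighbour of Ndn, was below the floor.

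The cluster of Cdkn1c and Phlda2 had the most neighbours past the threshold. In the RefSeq order Kcnq1, Cdkn1c, Slc22a18, Phlda2, Nap1l4, Cars, Tnfrsf26, Tnfrsf22 and Tnfrsf23, the genes that passed were at the far end. The decoy TRAIL receptor gene Tnfrsf22 read 12.45 and 12.50 in WT and 13.78 and 13.54 in Glut1-deficient cells, and rose by 1.19 (SE 0.12, adjusted p = 0.0118). Tnfrsf23, its close relative and also a decoy receptor gene, read 13.30, 13.40, 14.57 and 14.33 in the same order and rose by 1.10 (SE 0.12, adjusted p = 0.0146). Cars, the cysteinyl-tRNA synthetase gene, read 10.84, 10.98, 11.98 and 11.59 and rose by 0.88 (SE 0.16, adjusted p = 0.0387). The calls depended on single arrays: without WT replicate 1 the adjusted p was 0.0559 for Tnfrsf22, 0.0687 for Tnfrsf23 and 0.154 for Cars, and without Glut1-deficient replicate 1 it was 0.0541, 0.0609 and 0.102. Without WT replicate 2, Tnfrsf23 (0.0521) and Cars (0.105) were lost too. Because Tnfrsf22 and Tnfrsf23 are close copies, signal can be shared between their probes.

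The other genes of the cluster did not pass. Nap1l4, which lies between Phlda2 and Cars, differed by -0.13 (adjusted p = 0.596). Slc22a18, between Cdkn1c and Phlda2, differed by 0.46 (adjusted p = 0.0696), and Osbpl5 by 0.36 (adjusted p = 0.291). Tnfrsf26 read 6.74 and 6.49 in WT and 7.35 and 8.11 in Glut1-deficient cells, a difference of 1.12 that did not pass (adjusted p = 0.0755). Kcnq1ot1, the long non-coding RNA that silences this cluster on the paternal copy, read 6.05 and 5.75 in WT and 5.23 and 6.07 in Glut1-deficient cells, so its groups overlapped (adjusted p = 0.736). Over all the imprinted domains of the members, 46 genes that are no members were measured, of which 3 rose, 1 fell and 42 did not pass. This is 8.70% called, beside 7.22% of all rows. Those called were Cars, Tnfrsf22, Tnfrsf23 and Atp10a, already counted among the neighbours, so this is not a separate observation. The other gene of the Peg10 cluster with a wide range, Tfpi2, a protease inhibitor gene, read 6.43 and 5.61 in WT and 6.88 and 9.74 in Glut1-deficient cells, a difference of 2.29 (SE 0.93, adjusted p = 0.243). Sgce, which shares its promoter region with Peg10, read 4.46 and 4.50 in WT and 4.85 and 4.90 in Glut1-deficient cells (difference 0.39, adjusted p = 0.0754). It was below the floor on WT replicate 2 and Glut1-deficient replicate 1, so little can be read from its difference.

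**Figure D2:**
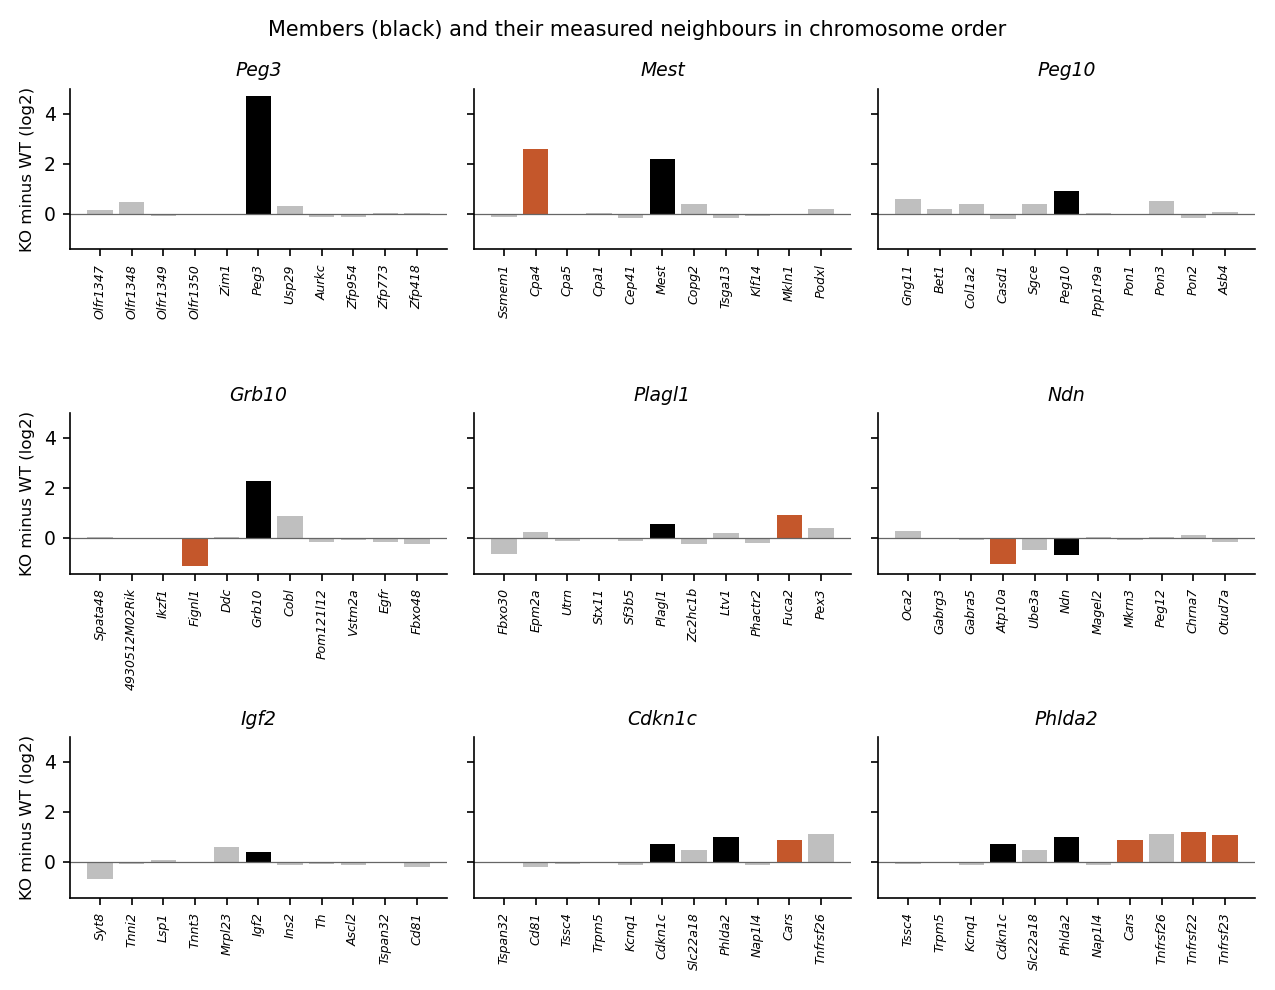
Difference between genotypes, Glut1-deficient (KO) minus WT on a log2 axis, of each measured member (black) and its nearest protein-coding neighbours with a row of their own in RefSeq order (orange where the adjusted p was under 0.05, otherwise grey). At Peg3 8 of the 10 neighbours are below the floor on all arrays, Cpa4 at 2.61 stands beside Mest at 2.17, and Cars, Tnfrsf22 and Tnfrsf23 are raised beyond Phlda2.

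MicroRNA genes lie within the spans of Mest and Igf2 and were measured by rows of their own. Their mature sequences from RefSeq are shown to identify those rows, with the seed, bases 2 to 8, in capitals.
mmu-miR-335-5p: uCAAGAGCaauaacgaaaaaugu
mmu-miR-335-3p: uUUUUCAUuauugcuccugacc
mmu-miR-483-5p: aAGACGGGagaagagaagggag
mmu-miR-483-3p: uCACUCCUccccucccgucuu
The row of Mir335, inside Mest, read 5.03 and 5.65 in WT and 5.49 and 5.46 in Glut1-deficient cells, so the groups overlapped while those of Mest did not. Its difference was 0.13 (SE 0.21, adjusted p = 0.824). The row of Mir483, inside Igf2, read 5.07 and 5.10 in WT and 5.36 and 5.37 in Glut1-deficient cells, a difference of 0.28 (SE 0.09) that did not pass (adjusted p = 0.151). These rows measure RNA that carries the hairpin and cannot tell the mature microRNA from its precursor.

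Other imprinted genes were examined as 2 lists. Of 24 other paternally expressed genes measured, 2 rose, 1 fell and 21 did not pass, which is 12.5% called beside 7.22% of all rows. Of the 24, 10 were above the floor on both arrays of at least 1 genotype, and the median difference was -0.04. Impact, which encodes an inhibitor of the amino acid sensing kinase GCN2, read 9.36 and 9.26 in WT and 11.35 and 11.17 in Glut1-deficient cells. Both Glut1-deficient values were higher, by 1.95 on average (SE 0.11, adjusted p = 0.0042), a size close to those of Mest and Grb10. The amino acid transporter gene Slc38a4 read 8.93 and 8.77 in WT and 5.99 and 6.70 in Glut1-deficient cells. It fell by 2.51 (SE 0.24, adjusted p = 0.0110), in the opposite direction to most members. Both calls were kept with each array left out in turn. Gab1, a docking protein of growth factor receptors with paternal expression in the placenta, rose by 0.57 (SE 0.11, adjusted p = 0.0427), a call lost with any 1 array left out (0.0761 to 0.208).

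Of 35 other maternally expressed genes measured, 3 rose, 1 fell and 31 did not pass, which is 11.4% called beside 7.22% of all rows. By the same rule 24 were above the floor, and the median was 0.01. Besides Tnfrsf22, Tnfrsf23 and Atp10a, given above, the fourth was Dcn, the gene of the matrix proteoglycan decorin, at 4.08 and 3.82 in WT and 5.28 and 5.97 in Glut1-deficient cells. Both WT values were below the floor, so Dcn was at least 2.14-fold higher (adjusted p = 0.0250), a call lost without WT replicate 1 (0.0697) or WT replicate 2 (0.0834). Decorin is a typical product of fibroblasts, whose markers are given further on. Igf2r, the receptor that removes IGF2 from the cell surface, read 11.99 and 12.18 in WT and 12.53 and 12.47 in Glut1-deficient cells, a difference of 0.42 that did not pass (adjusted p = 0.0990). Dlk1, Usp29 and Zim1, the last 2 from the Peg3 cluster, were below the floor. Thus 59 other imprinted genes were measured, and 52 of them did not pass, a number that includes genes not above the floor.

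**Figure D3:**
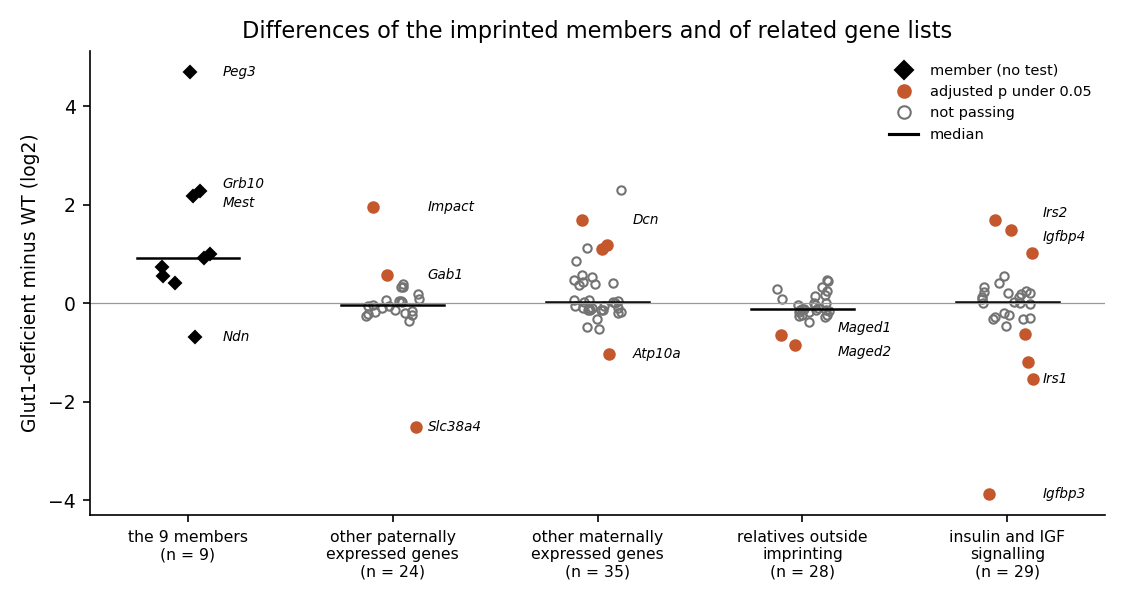
Difference between genotypes (log2) of the 9 members, drawn as diamonds without a test, and of 4 lists of related genes, drawn as circles that are filled where the adjusted p was under 0.05, with bars at the medians. The members, chosen on this comparison, spread from -0.69 (Ndn) to 4.69 (Peg3) with a median of 0.92. The medians of the other lists lie between -0.12 and 0.03, and these lists also spread, with Igfbp3 at -3.88 and Impact at 1.95.

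Several members belong to families with relatives that are not imprinted, and these serve as a comparison. Of 28 relatives measured, 0 rose, 2 fell and 26 did not pass, with a median of -0.12. This is 7.14% called, beside 7.22% of all rows. The relatives that fell belong to the MAGE family of Ndn. Maged2 read 8.41 and 8.47 in WT and 7.61 and 7.55 in Glut1-deficient cells and fell by 0.86 (SE 0.09, adjusted p = 0.0146), lost without WT replicate 1 (0.0708), WT replicate 2 (0.0724) or Glut1-deficient replicate 1 (0.0671). Maged1 read 10.71, 10.70, 10.05 and 10.07 and fell by 0.64 (SE 0.09, adjusted p = 0.0230), a call lost with any 1 array left out (0.0645 to 0.124). The differences of Maged1 and Maged2 had the sign of Ndn, while the other MAGE relatives measured, Mageh1, Magee1 and Magee2, did not pass.

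The relatives of Grb10, Cdkn1c, Phlda2 and Plagl1 did not pass. Grb7 differed by -0.39 (adjusted p = 0.0778) and Grb14 by 0.16 (adjusted p = 0.441), beside 2.27 for Grb10. The other inhibitors of the Cip/Kip family, Cdkn1a (p21) and Cdkn1b (p27), differed by -0.15 (adjusted p = 0.467) and 0.25 (adjusted p = 0.313), beside 0.73 for Cdkn1c. Phlda1 and Phlda3 differed by -0.24 and -0.26, below 0, beside 0.99 for Phlda2. Plag1, a growth-promoting relative of Plagl1, differed by 0.44 (adjusted p = 0.0550). Whether a member differed from its relatives was not tested, since the members were chosen for their values.

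**Figure D4:**
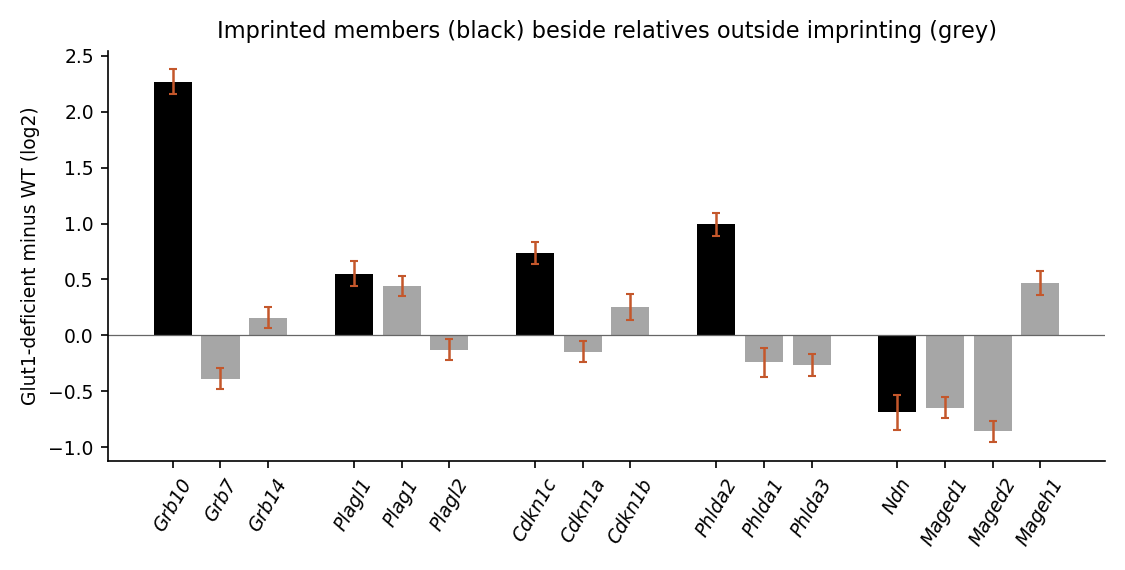
Difference between genotypes (log2, with standard errors) of members beside relatives of the same family outside imprinting. Grb10 at 2.27 stands beside Grb7 at -0.39 and Grb14 at 0.16, and Phlda2 at 0.99 beside Phlda1 at -0.24 and Phlda3 at -0.26. Ndn lies below 0 together with Maged1 and Maged2, while Mageh1, also drawn, did not pass the threshold.

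Grb10 and Igf2 act on the insulin and IGF receptor pathway, in which ligands and binding proteins set receptor activity and the IRS adaptors pass it to PI3 kinase and AKT. The culture medium itself contained insulin. Of 29 genes of this pathway measured, 3 rose, 4 fell and 22 did not pass, with a median of 0.03. This is 24.1% called, beside 7.22% of all rows. Of the 29, 25 were above the floor on both arrays of at least 1 genotype, while all rows include many dim ones. Fitted on their own, rows at or above the median signal had 3043 of 15302 called. The share of all rows is thus a low background for a list of bright genes. Igfbp3, the main carrier of IGFs and itself able to limit growth, read 13.59 and 13.26 in WT and 9.26 and 9.83 in Glut1-deficient cells. It fell by 3.88 (SE 0.22, adjusted p = 0.0043), with both Glut1-deficient arrays far below both WT arrays. The receptor substrates moved in opposite directions. Irs2 read 10.48 and 10.42 in WT and 12.22 and 12.05 in Glut1-deficient cells and rose by 1.69 (SE 0.11, adjusted p = 0.0051). Irs1 read 7.54, 7.63, 6.17 and 5.91 and fell by 1.54 (SE 0.12, adjusted p = 0.0075). The calls for Igfbp3, Irs1 and Irs2 were kept with each array left out in turn.

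The other pathway genes past the threshold had smaller differences. The IGF binding protein gene Igfbp4 rose by 1.49 (SE 0.15, adjusted p = 0.0116), lost without WT replicate 1 (0.0501). Igfbp7, of a related binding protein, fell by 1.19 (SE 0.14, adjusted p = 0.0168), lost without WT replicate 1 (0.0735), WT replicate 2 (0.0577) or Glut1-deficient replicate 1 (0.0576). Eif4ebp1, a translation repressor that mTORC1 phosphorylates, rose by 1.02 (SE 0.13, adjusted p = 0.0188), lost without WT replicate 1 (0.0869), WT replicate 2 (0.0616) or Glut1-deficient replicate 1 (0.0763). The kinase gene Akt1 fell by 0.62 (SE 0.10, adjusted p = 0.0276), lost with any 1 array left out (0.0782 to 0.145). Igf1r, a receptor that Grb10 binds, read 10.93 and 10.99 in WT and 10.89 and 11.05 in Glut1-deficient cells, with overlapping groups.

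Cdkn1c and Plagl1 restrain the cell cycle, and Ndn binds E2F1. Of 23 genes of cyclins, their kinases, inhibitors, E2F factors and the retinoblastoma family, 0 rose, 6 fell and 17 did not pass. This is 26.1% called, beside 7.22% of all rows, and the median was -0.26. Of the 23, 21 were above the floor on both arrays of at least 1 genotype, while all rows include many dim ones. Rows at or above the median signal, fitted on their own, had 3043 of 15302 called. Cdk1, the mitotic kinase, read 11.86 and 11.86 in WT and 10.74 and 10.93 in Glut1-deficient cells and fell by 1.02 (SE 0.11, adjusted p = 0.0134). Ccne2, a cyclin of the start of DNA replication, fell by 1.09 (SE 0.14, adjusted p = 0.0182), E2f3 by 0.75 (SE 0.11, adjusted p = 0.0227) and Cks1b, a kinase subunit, by 0.67 (SE 0.10, adjusted p = 0.0267). Without WT replicate 1, WT replicate 2 or Glut1-deficient replicate 1 these calls were lost, at 0.0651, 0.0596 and 0.0606 for Cdk1, 0.0590, 0.0716 and 0.0760 for Ccne2, 0.112, 0.0963 and 0.0890 for E2f3, and 0.0974, 0.136 and 0.110 for Cks1b. Cks1b was also lost without Glut1-deficient replicate 2 (0.0707). Among the CDK4 and CDK6 inhibitor genes, Cdkn2b (p15) was one of the 6 that fell, by 0.76 (SE 0.13, adjusted p = 0.0348), a call lost with any 1 array left out (0.0565 to 0.155). Cdkn2a, Cdkn2c and Cdkn2d did not pass.

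Imprints are kept by DNA methylation enzymes and by factors such as ZFP57 that recognise methylated control regions. Of 30 such genes measured, 1 rose, 2 fell and 27 did not pass, with a median of -0.11. This is 10.0% called, beside 7.22% of all rows. Of the 30, 25 were above the floor on both arrays of at least 1 genotype, while all rows include many dim ones. Rows at or above the median signal, fitted on their own, had 3043 of 15302 called. Uhrf1, which brings DNMT1 to newly copied DNA, fell by 0.89 (SE 0.13, adjusted p = 0.0247), a call lost with any 1 array left out (0.0704 to 0.103). Ezh2, a histone methyltransferase of the Polycomb complex, fell by 0.72 (SE 0.11, adjusted p = 0.0274), lost without WT replicate 1 (0.120), WT replicate 2 (0.122) or Glut1-deficient replicate 1 (0.0969). Zfp57 itself was dim, at 5.46 and 5.36 in WT and 5.95 and 6.15 in Glut1-deficient cells, and rose by 0.64 (SE 0.11, adjusted p = 0.0389), lost with any 1 array left out (0.0869 to 0.169). Dnmt1 differed by -0.40 (adjusted p = 0.0976). Methylation was not measured in these samples.

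Several members, among them Peg3, Mest, Igf2 and Cdkn1c, are active in mesenchymal cells, so markers of other cells of a skin culture are given beside them. Of 17 fibroblast markers measured, 3 rose, 0 fell and 14 did not pass, which is 17.6% called beside 7.22% of all rows. Positive differences were seen for 15, and the median was 0.37. Vim, the intermediate filament of mesenchymal cells, read 8.38 and 8.04 in WT and 10.25 and 11.92 in Glut1-deficient cells (difference 2.88, SE 0.54, adjusted p = 0.0428), lost without WT replicate 1 (0.107) or WT replicate 2 (0.125). Postn read 5.95 and 5.62 in WT and 6.14 and 7.34 in Glut1-deficient cells, and Loxl1 differed by 0.92 (adjusted p = 0.0616). Prrx1 (adjusted p = 0.0376) and Col6a1 (adjusted p = 0.0433) were higher, by 1.05 and 0.59 in the fit, both lost with any 1 array left out (0.0562 to 0.133 and 0.0883 to 0.191). The defining collagen gene Col3a1 and the genes Lum, Fap, Twist1, Col6a2, Col6a3 and Mfap5 were below the floor on all arrays. Col1a1 was at 4.87 and 4.93 in WT and 5.11 and 5.14 in Glut1-deficient cells, and Col1a2 at 4.44, 4.45, 4.81 and 4.88, near the floor. The summed unlogged signal of the list was 692 and 627 in WT and 1702 and 4486 in Glut1-deficient cells, and without Vim it was 359, 363, 481 and 599. The fibroblast sum was thus highest on Glut1-deficient replicate 2. The part of such cells in the differences of the members was not tested.

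Melanocyte markers also differed. Of 10 measured, 1 rose, 0 fell and 9 did not pass, which is 10.0% called beside 7.22% of all rows. The median was 0.46, and the summed signals were 1566 and 1127 in WT and 5412 and 2321 in Glut1-deficient cells. The pigment enzyme gene Tyrp1 read 10.25 and 9.67 in WT and 12.11 and 10.80 in Glut1-deficient cells, Dct read 7.06, 6.53, 9.22 and 8.04, and Pmel rose by 1.04 (adjusted p = 0.0341), lost without WT replicate 1 (0.0903), WT replicate 2 (0.122) or Glut1-deficient replicate 1 (0.0962). The melanocyte sum was highest on Glut1-deficient replicate 1, and its part in the differences of the members was not tested. Of 18 keratinocyte markers, 2 rose, 2 fell and 14 did not pass, which is 22.2% called beside 7.22% of all rows. Of the 18, 17 were above the floor on both arrays of at least 1 genotype, while all rows include many dim ones. Rows at or above the median signal, fitted on their own, had 3043 of 15302 called. Negative differences were seen for 12, and the median was -0.15. The desmosomal cadherin genes Dsg3 and Dsc3 rose by 0.92 (adjusted p = 0.0157) and 0.84 (adjusted p = 0.0262), and the hemidesmosome collagen gene Col17a1 and the adhesion gene Epcam fell by 0.86 (adjusted p = 0.0181) and 0.84 (adjusted p = 0.0184). Dsc3, Col17a1 and Epcam were lost with any 1 array left out (0.0638 to 0.115, 0.0567 to 0.0883 and 0.0609 to 0.0933), and Dsg3 without WT replicate 1 (0.0811), WT replicate 2 (0.0531) or Glut1-deficient replicate 1 (0.0780). The summed signal of the list, with Krt5, Krt14 and Perp the brightest, was 1109904 and 1179388 in WT and 1056567 and 925130.0 in Glut1-deficient cells, and its part in the differences of the members was not tested. In the endothelial list 1 of 9 rose, Kdr, a VEGF receptor gene, at 6.11 and 6.34 in WT and 10.14 and 9.51 in Glut1-deficient cells (adjusted p = 0.0051), a call kept with each array left out, while Tie1 was below the floor and Pecam1 above it on 1 of 4 arrays. Only Kdr of the 9 was above the floor on both arrays of a genotype. In the muscle and adipocyte list 1 of 9 rose, Fabp4, at 4.25 and 4.10 in WT and 4.68 and 4.89 in Glut1-deficient cells, around the floor (adjusted p = 0.0487, lost with any 1 array left out, 0.0985 to 0.203). Acta1 was the brightest gene of that list without passing, and Myog was below the floor. In the immune list 1 of 8 rose, the lysosomal gene Cd68, by 1.95 (adjusted p = 0.0267), lost without WT replicate 1 (0.0913) or WT replicate 2 (0.0756), while the defining genes Ptprc and Csf1r were below the floor on all arrays. In the Schwann cell and neuron list 1 of 8 fell, Stmn2, by 2.03 (adjusted p = 0.0388), lost without Glut1-deficient replicate 1 (0.175) or replicate 2 (0.109), and the other bright genes, Erbb3 and Tubb3, did not pass. In the endothelial, muscle and adipocyte, immune, and Schwann cell and neuron lists 11.1% to 12.5% were called, beside 7.22% of all rows. The part of these cell types in the differences of the members was not tested either.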

How the data were processed

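RNA of 4 keratinocyte pools, 2 WT and 2 Glut1-deficient, was hybridised to Affymetrix whole-transcript mouse arrays. The deposited values are log2 SST-RMA signals, and the submitters' processing notes name Affymetrix Expression Console and RMA. All fold values given here are on this signal scale. The sources used here do not give versions, genome build or annotation release. The series' value table has 72688 rows, of which 6732 are controls, 30604 have 1 gene symbol, 2146 several and 33206 none. Symbols came from the platform annotation, and 827 were updated through 22818 Entrez matches to RefSeq (GRCm38.p6). A gene with several rows (355 genes) was read from its brightest.

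The log2 values were used as deposited by the authors, without further normalization. All 1-symbol rows were fitted together with limma 3.58.1 in R 4.3.3 (lmFit, eBayes, Benjamini-Hochberg, threshold 0.05, no block); no array was dropped or imputed. The fit was tested on simulated data. A value below the floor, the 95th percentile of an array's 23 background rows, counts as not measured, and ratios against it are bounds. The members and gene lists were chosen with earlier results of these data known. Text names all members, up to 4 called genes per list and direction by smallest p, the 3 brightest markers per cell type, and the called domain genes; other genes named here, among them the neighbours, were chosen after their values were seen. Alternatives were a replicate block, quantile normalization, other row filters, an intensity trend, the mean of a gene's rows, and leaving out each array. The number of arrays limits the precision.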

Additional observations from a re-analysis of the deposited data

How the results depend on the processing

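None of the 89 member values under the alternatives run reversed or moved by over 1 SD. This outcome was largely fixed in advance. The block, the row filters, the intensity trend and the mean of a gene's rows leave a member's difference unchanged. Leaving out 1 array cannot shift it past that SD, nor reverse it where the groups do not overlap. Only quantile normalization could have moved it further. The median of the 9 members was 0.80 to 1.00 with 1 array left out, lowest without WT replicate 1. Of 419 alternative values of 42 genes called among the lists, neighbours and markers, 0 reversed and 160 lost the call, 40 of these with every row of the table tested; Igfbp3 and Impact kept it there. Of 250 alternative values of 25 genes described without a call, 11 passed and 4 reversed. Those 4 came from leaving out 1 array, over which Kcnq1ot1 ranged from -0.67 to 0.17, Mir335 from -0.18 to 0.44 and Igf1r from -0.071 to 0.095. Over all 1-symbol rows 2209 were called, 74 with every row of the table tested, and 314 to 1214 with 1 array left out, lowest without Glut1-deficient replicate 1. Of the members, 3 were called with every row tested, the same ones that were named for being higher, so nothing is read from this. With every row tested the calls were 1 among other paternally expressed genes, 0 among maternally expressed genes, 0 among cell cycle genes, 0 among domain genes, 0 among imprint maintenance genes, 1 in the insulin and IGF list and 0 among relatives (limma; 9737 of all rows had an unadjusted p under 0.05); the cause was not tested. With 1 array left out these counts ranged 2 to 2, 1 to 3, 0 to 5, 0 to 3, 0 to 2, 3 to 6 and 0 to 1 in that order. Among rows at or above the median signal, 7 maternally expressed genes were called, and 8 members, 7 higher and Ndn lower, so the call of Ndn depended on the row filter. With the replicate number as a block, 1849 rows and 7 members (6 higher and Ndn lower, without Plagl1) were called; the numbers do not tie animals, and the correlation of replicate 1 minus replicate 2 between genotypes was -0.23. The crossed pairing, added after seeing the data, called 2039 rows. Arrays give no count depth; Peg10 and Igf2 were limited by background.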
